A study of Arabidopsis thaliana with 13 samples.

Results

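Leaf 11 of 38-day-old Arabidopsis thaliana plants was profiled on Affymetrix ATH1 arrays in 3 genotypes: the ANAC059 insertion line (T-DNA), the ANAC092 insertion line (T-DNA) and Col-0 wild type, the background accession. These 3 arrays are 3 of the 13 profiles of a series made to find early targets of both transcription factors. All leaf plants were grown in soil, and no chemical treatment is given for them. The other profiles are of shoots of 3-week-old seedlings given 10 µM estradiol for 5 h. They overexpressed ANAC092 (3 arrays) or ANAC059 (2 arrays) under estradiol control, and the empty vector stood against each (3 and 2 arrays). Empty vector replicates 1 and 2 carry the same replicate names in both sets, so the inductions share control plants as labelled. Each mutant is represented by 1 insertion line, and how many leaves or plants went into an array is not stated in the labels. Each leaf genotype has 1 array, so no leaf difference carries a test or an error, and every leaf difference below compares arrays, not genotypes.

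ANAC092 (also called ORE1) and ANAC059 (ORS1) are related plant-specific NAC transcription factors. In Arabidopsis leaves NAC factors of this group promote senescence, the last phase of leaf life, in which chlorophyll and proteins are broken down and nutrients are exported. A T-DNA insertion usually lowers or abolishes the function of the gene that it interrupts, whereas induction raises it. The platform annotation named no probe set for ANAC059 alone or for ANAC092 alone, so the level of the disrupted genes was not examined and the labels were not checked in that way.

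A probe set was counted where a line differed from wild type by at least 1 on the log2 scale (2-fold) and the higher of the compared signals was at or above 5.76, the median of all leaf values. Both lines were set against the same wild type array, so a high or low value on that array moves both differences together. In the ANAC059 line 979 of 22746 probe sets (4.3%) were higher and 136 (0.598%) were lower. In the ANAC092 line 216 (0.95%) were higher and 186 (0.818%) were lower. The classes held 74 probe sets higher in both lines (0.325%), 70 lower in both (0.308%), 904 higher in the ANAC059 line only (3.97%) and 66 lower in the ANAC059 line only (0.29%). A further 142 were higher in the ANAC092 line only (0.624%) and 115 lower in it only (0.506%). In 1 probe set (0.0044%) the lines departed from wild type in opposite directions. Of the 1372 probe sets in a class 640 had exactly 1 named gene, and the rest are counted by probe set.

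**Figure D1:**
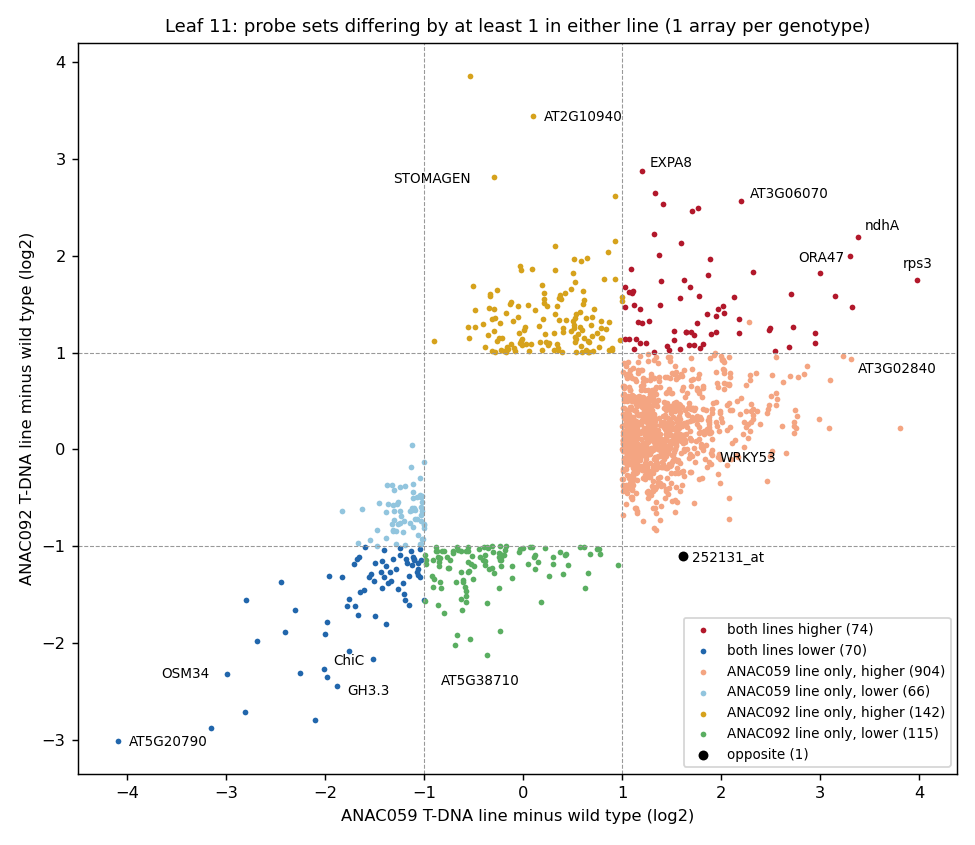
Each point is a probe set differing by at least 1 from wild type in either line, with the ANAC059 line minus wild type on the x axis and the ANAC092 line minus wild type on the y axis (log2, 1 array per genotype). Colours give the classes and dashed lines the threshold of 1. The 904 probe sets higher in the ANAC059 line only form the dense cloud on the right.

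The ANAC059 array stood apart from the others. Differences from wild type had an SD across probe sets of 0.452 in the ANAC059 line and 0.314 in the ANAC092 line, and the SD of ANAC092 line minus ANAC059 line was 0.444. Taken directly, 177 probe sets were at least 1 higher and 991 at least 1 lower in the ANAC092 line than in the ANAC059 line. The median signal was 5.83 in the ANAC059 line, 5.73 in the ANAC092 line and 5.73 in wild type. Exactly equal values were common, at 22.1% of probe sets between the ANAC059 line and wild type and 27.2% between the ANAC092 line and wild type. Between arrays of 1 group in the ANAC092 seedling set, 0.0264% to 2.04% of probe sets differed by at least 1 under a floor set in the same way. In the ANAC059 seedling set the range was 0.0484% to 0.128%. The shares in leaf were 4.9% for the ANAC059 line, above both ranges, and 1.77% for the ANAC092 line, inside the former and above the latter. The actin control probe sets read 2.84 higher at the 3′ than at the 5′ end in the ANAC059 line, 2.55 in the ANAC092 line and 2.61 in wild type (log2). Of the mesophyll markers, RCA (rubisco activase) read 13.58, 13.58 and 13.58 in the ANAC059 line, the ANAC092 line and wild type, and PRK (phosphoribulokinase) read 12.26, 12.26 and 12.35. The root markers PYK10 and EXPA7 lay at 3.98 to 5.39 on all 3 arrays, below the floor. No marker of phloem, xylem, flowers, seeds or dividing cells had a probe set of its own in the platform annotation. That annotation left 8730 of 22746 probe sets without a gene, so such markers may lie among the unnamed ones.

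Genes lower in both lines included OSM34, ChiC, GH3.3 and PDF1.4. OSM34, an osmotin-like protein gene, read 4.94 in the ANAC059 line and 5.62 in the ANAC092 line, against 7.94 in wild type. ChiC, a class V chitinase gene, read 6.27 in the ANAC059 line and 6.02 in the ANAC092 line, against 8.28 in wild type, which is 4.04-fold and 4.81-fold lower. Both insertion lines thus lay below wild type by over 2 log2 units for these transcripts. GH3.3, which encodes an enzyme joining amino acids to auxin, read 6.91 in the ANAC059 line and 6.35 in the ANAC092 line, against 8.79 in wild type. PDF1.4, a plant defensin gene, read 7.72 and 7.87 in the ANAC059 and ANAC092 lines, against 9.23 in wild type.

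The largest named departure was that of AT5G20790, with 6.35 in the ANAC059 line and 7.43 in the ANAC092 line, against 10.44 in wild type (-4.09 and -3.01). AT2G04460 read 8.54 and 7.86 in the ANAC059 and ANAC092 lines, against 10.65 in wild type. Together with AT3G44510, AT4G12500, AT4G16260, AT2G41800, AT3G27400, AT3G22620 and AT1G06620, whose differences ran from -1.39 to -2.16 over both lines, these are the 12 named genes with the largest shared deficit. Chosen after their values were seen, JRG21, a jasmonate-regulated gene, lay 1.37 lower in each line, and SUFE2, which acts in building iron-sulfur clusters, differed by -1.08 in the ANAC059 line and -1.27 in the ANAC092 line. OCT4, an organic cation transporter gene chosen in the same way, differed by -1.06 and -1.24. Among the 70 probe sets, 67 differed by less than 1 between the lines themselves, as most probe sets did. Of all 22746, 177 were at least 1 higher and 991 at least 1 lower in the ANAC092 line than in the ANAC059 line. The median signal of the 70 in wild type was 8.73. The unnamed probe set 266132_at read 6.49 in the ANAC059 line and 6.77 in the ANAC092 line, against 9.65 in wild type, and 266184_s_at read 7.63 and 7.73, against 10.44.

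**Figure D2:**
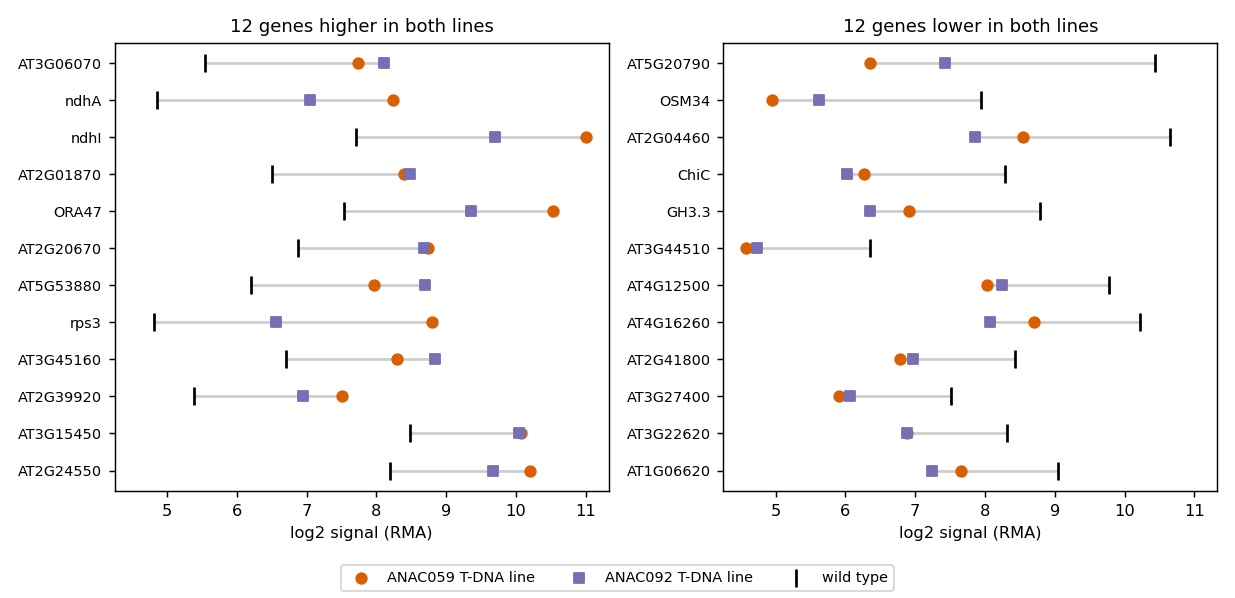
Log2 signals on the 3 leaf arrays for the 12 named genes with the largest shared difference in each direction, with circles for the ANAC059 line, squares for the ANAC092 line and a bar for wild type. Both lines lie on the same side of wild type by construction, and the distance between the lines is largest for rps3 on the left and AT5G20790 on the right.

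Genes higher in both lines included the chloroplast-encoded ndhA, ndhI and rps3, and the nuclear genes ORA47 and EXPA8. ndhA and ndhI encode subunits of the chloroplast NADH dehydrogenase-like complex of cyclic electron flow. ndhA read 8.23 in the ANAC059 line and 7.05 in the ANAC092 line, against 4.86 in wild type, and ndhI read 11.01 and 9.71, against 7.71. PGRL1B, a nuclear gene of another cyclic electron flow route, chosen after its values were seen, read 8.87 and 8.48, against 7.35. ORA47, which encodes an AP2/ERF factor of the jasmonate pathway, read 10.54 in the ANAC059 line and 9.36 in the ANAC092 line, against 7.54 in wild type. EXPA8, an expansin gene of cell wall loosening, read 7.54 and 9.21 in the ANAC059 and ANAC092 lines, against 6.33 in wild type. The excess of ORA47 and of the chloroplast genes was larger in the ANAC059 line, and that of EXPA8 was larger in the ANAC092 line.

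AT3G06070 had the largest shared excess, with 7.74 in the ANAC059 line and 8.11 in the ANAC092 line, against 5.55 in wild type. AT3G15450, the member of the sugar starvation and dark response list in this class, read 10.07 and 10.05, against 8.48, and AT2G20670 read 8.75 and 8.68, against 6.88. AT2G01870, AT5G53880, AT3G45160, AT2G39920 and AT2G24550 complete the 12, with differences of 1.48 to 2.49 over both lines. Others chosen after their values were seen were AT1G54410 (HIRD11, a dehydrin), which differed by 2.48 and 1.23, and AT5G61590 (DEWAX, a repressor of wax synthesis), by 1.13 and 1.14. Among the 74 probe sets 57 differed by less than 1 between the lines. Of all 22746, 177 and 991 differed by at least 1 between them, higher and lower in the ANAC092 line. Of the 74, 47 had the larger excess in the ANAC059 line, and the median signal in wild type was 6.67. The unnamed probe sets 249862_at and 259839_at read 8.60 and 8.27 in the ANAC059 line and 8.12 and 9.04 in the ANAC092 line, against 6.28 and 6.57 in wild type.

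The class higher in the ANAC059 line only was the largest, and the counts of list members below are to be read beside the 4.3% of all probe sets that were higher in that line. CML38, a calmodulin-like calcium sensor gene, read 8.15 in the ANAC059 line and 6.56 in the ANAC092 line, against 5.61 in wild type. Of 8 calmodulin-like genes matched by symbol, 3 (37.5%) were at least 1 higher in the ANAC059 line: CML38, CML37 and CML41. CML37 read 7.65, 6.45 and 6.06 in the ANAC059 line, ANAC092 line and wild type, and CML41 read 8.81, 7.40 and 7.79. CML43 lay 0.81 lower in the ANAC059 line. WRKY53, a transcription factor gene that promotes leaf senescence, read 10.78 in the ANAC059 line and 8.82 in the ANAC092 line, against 8.87 in wild type, so that the ANAC092 line stayed at the wild type level while the ANAC059 line was 3.75-fold higher. ZAP1, another WRKY gene, read 6.73 and 5.12, against 5.03, and the other 5 of 7 measured WRKY genes did not reach a difference of 1 in either line. In the list of rapid stress response genes 3 of 7 measured genes (42.9%) were higher in the ANAC059 line, ORA47, WRKY53 and the zinc finger factor gene STZ (11.36 and 10.54, against 10.09), and 1, ORA47, in the ANAC092 line. PIA1, a protein phosphatase 2C gene, read 9.18 and 7.22, against 6.64.

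Of the abscisic acid, cold and osmotic stress list 2 of 4 measured genes (50% beside 4.3% of all probe sets) belonged to this class. The dehydrin gene LTI30 read 9.07 in the ANAC059 line and 7.03 in the ANAC092 line, against 7.11 in wild type, and COR47 read 11.18 and 9.74, against 9.94, while COR15A and COR15B differed by 0.13 to 0.32. AT5G48570 (ROF2, an immunophilin of the heat response) read 5.97 and 4.38, against 4.28. Of 23 measured cytochrome P450 genes 3 (13.04% beside 4.3%), all of the CYP71B group, were higher in the ANAC059 line: CYP71B23 by 1.85, CYP71B24 by 1.19 and CYP71B34 by 1.12. The same genes differed by 0.41, -0.07 and 0.25 in the ANAC092 line. CYP71B genes are close relatives, so signal from one may reach the probes of another.

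The families of the next comparisons were assembled after the differences had been seen. Of 8 measured genes of the exocyst, which tethers secretory vesicles to the plasma membrane, and of its partner in membrane fusion KEULE, 3 (37.5% beside 4.3% of all probe sets) were higher in the ANAC059 line. KEU read 7.77 in the ANAC059 line and 5.67 in the ANAC092 line, against 5.48 in wild type, and SEC6 read 7.61 and 5.76, against 5.56. SEC15B read 6.80 and 5.29, against 5.36, while SEC10, EXO84B, SEC15A, SEC5A and SEC5B differed by -0.11 to 0.45 in the ANAC059 line. Of 11 measured genes of the ESCRT machinery, which sorts membrane proteins into vacuole-bound vesicles, 3 (27.3%) were higher in the ANAC059 line. These were VPS24.1 (7.62 and 6.06, against 5.94), VPS20.1 (6.39 and 4.97, against 4.87) and VPS2.1 (9.81 and 8.78, against 8.76). The median difference in the ANAC059 line was 0.28 for the 8 genes and 0.38 for the 11, beside 0 over all probe sets. In the ANAC092 line none of these 19 genes differed by 1, and the medians were -0.03 and 0.01. Of 3 measured ER DnaJ co-chaperone genes, ATERDJ3B and ATERDJ2B were higher in the ANAC059 line, by 1.56 and 1.39. Regulators chosen after their values were seen included EIN3 of ethylene signalling (1.60 and -0.37) and MYC3 of jasmonate signalling (1.22 and 0.30).

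AT3G02840, with 8.94 in the ANAC059 line and 6.58 in the ANAC092 line, against 5.64 in wild type, had the largest named difference of the class (3.31). AT2G38800, AT5G58120, AT5G47070, AT4G29780, AT4G16660, AT4G28400, AT5G40450 and AT5G63410 followed with 2.51 to 3.10 in the ANAC059 line and -0.04 to 0.77 in the ANAC092 line. Across the 904 probe sets the median difference was 1.32 in the ANAC059 line and 0.16 in the ANAC092 line, and 159 of them also lay at least 0.5 above wild type in the ANAC092 line. One probe set of the class passed 1 in the ANAC092 line too, but at signals below the floor there. The unnamed probe set 253259_at read 7.86 and 4.28, against 4.05, and 247925_at read 9.82 and 7.56, against 6.59.

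**Figure D3:**
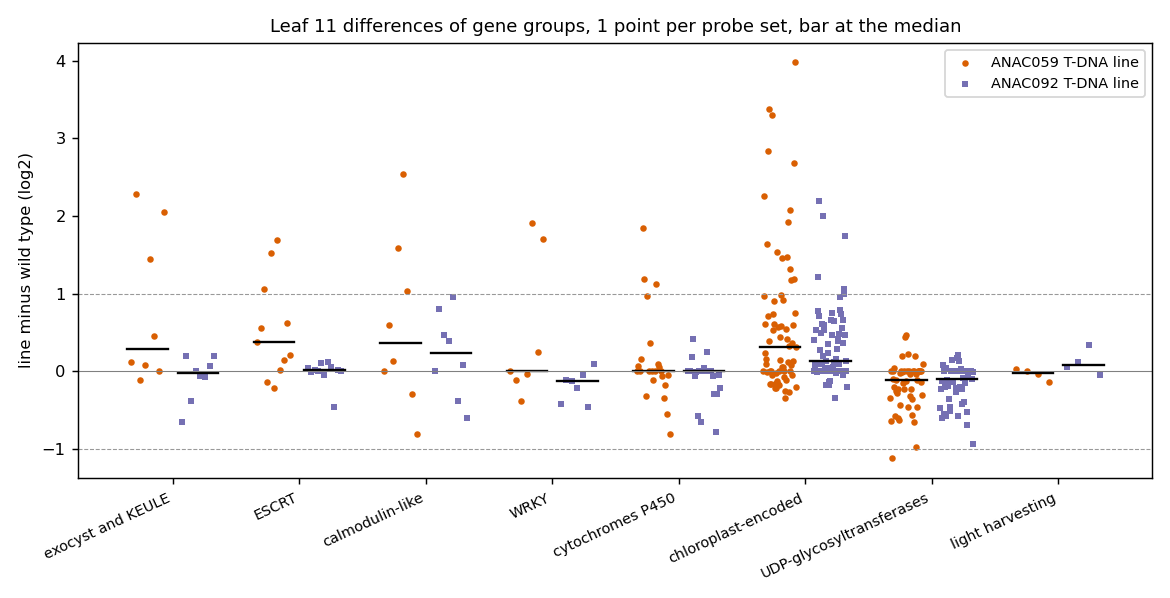
Differences from wild type (log2) of 8 gene groups on the leaf arrays, with circles for the ANAC059 line, squares for the ANAC092 line and 1 point per probe set, and with a bar at each median. In the exocyst, ESCRT, calmodulin-like, WRKY, cytochrome P450 and chloroplast-encoded groups, points reach above 1 in the ANAC059 line, whereas the 4 light-harvesting and photosystem genes lie within 0.34 of 0 in both lines.

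Gene length went together with this class. Nuclear genes higher in the ANAC059 line only had a median annotated length, introns included, of 2983 bp (n = 415), against 2187 bp for genes above the floor in no class (n = 5820). The medians were 1395 bp for genes higher in the ANAC092 line only (n = 65), 1428.5 bp for those higher in both lines (n = 40) and 1592.5 bp for those lower in both lines (n = 26). When 6443 probe sets were divided by gene length into 10 bins of equal size, the share at least 1 higher in the ANAC059 line was 3.85% among the shortest genes and 16.9% among the longest, and the share in the ANAC092 line was 4.31% and 0.31%. Within 3 bins of signal the pattern was present in each: among the dimmest genes 14.3% of long and 3.95% of short genes were higher in the ANAC059 line, in the middle bin 10.1% and 5.09%, and among the brightest 6.73% and 3.79%. Across genes, length had a Spearman correlation of 0.32 with the ANAC059 line difference, -0.14 with the ANAC092 line difference and -0.42 with the ANAC092 line minus the ANAC059 line; these points share arrays and a gene is not a replicate. The same correlation was -0.20 for the ANAC092 induction and 0.15 for the ANAC059 induction. The part of length in the class was not tested. The class holds 3 of the 8 measured exocyst and KEULE genes and 3 of the 11 measured ESCRT genes.

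**Figure D4:**
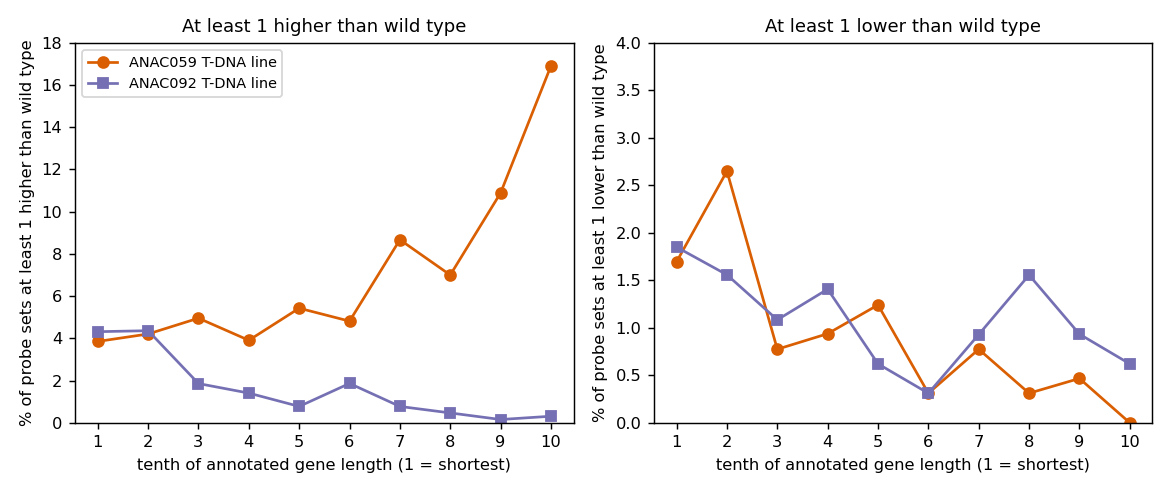
Share of probe sets at least 1 higher (left) or at least 1 lower (right) than wild type, in percent, in 10 bins of annotated gene length, with circles for the ANAC059 line and squares for the ANAC092 line. The share higher reaches 16.9% among the longest genes in the ANAC059 line and 0.31% in the ANAC092 line.

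Transcripts of chloroplast-encoded genes formed a group with many higher signals, above all in the ANAC059 line. Of 69 measured chloroplast genes 15 were at least 1 higher in the ANAC059 line (21.7%, beside 4.3% of all probe sets). In the ANAC092 line 5 were, beside 0.95% of all probe sets, and 0 were lower in either line. The median difference was 0.31 in the ANAC059 line and 0.13 in the ANAC092 line. The 5 shared genes were rps3, ndhA, ndhI, cemA and rps19. rps3, a plastid ribosomal protein gene, read 8.79 in the ANAC059 line and 6.56 in the ANAC092 line, against 4.81 in wild type. In the ANAC059 line only, clpP, a protease subunit gene, read 10.10, against 8.04 in the ANAC092 line and 7.26 in wild type. atpA of the ATP synthase read 8.89 in the ANAC059 line and 7.03 in the ANAC092 line, against 6.63 in wild type, and psaB of photosystem I read 11.97 and 10.46, against 10.43. rpl36, rpl22 and rpl16 differed by 2.08, 1.92 and 1.48 in the ANAC059 line.

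The group did not move as a whole. rbcL, the large subunit of rubisco, differed by -0.12 in the ANAC059 line and 0.00 in the ANAC092 line, psbA of photosystem II by -0.18 and -0.18, and ndhH by -0.06 and 0.09 (named after their values were seen). In the order of protein-coding genes on the chloroplast chromosome, rpl16, rps3, rpl22 and rps19 follow each other, as do ndhI and ndhA. Chloroplast transcripts mostly lack long poly(A) tails, and the kit named in the labels amplifies RNA for arrays; a part of amplification in these values was not tested. The 4 measured nuclear genes of light harvesting and photosystems (LHCB4.1, LHCB4.2, PSAN and PSBW) differed by -0.14 to 0.34, the 3 Calvin cycle genes by -0.09 to 0.38 and the chlorophyll synthesis genes CHLM and PORB by 0.00 to 0.53.

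Genes lower in the ANAC059 line only included 2 of 5 measured genes of flavonoid and anthocyanin synthesis. Of all probe sets 0.598% were lower in the ANAC059 line, and 0.29% were in this class. AT4G14090 read 5.61 in the ANAC059 line and 6.08 in the ANAC092 line, against 6.92 in wild type, and UF3GT, an anthocyanin glycosyltransferase gene, read 6.16 and 6.68, against 7.29. UGT78D2, a flavonoid glycosyltransferase gene, and DFR, dihydroflavonol reductase, differed by -0.66 and -0.35 in the ANAC059 line and by -0.41 and -0.02 in the ANAC092 line. The list median was -0.66 in the ANAC059 line and -0.41 in the ANAC092 line. The peroxidase gene PRX52 read 6.03 and 6.58, against 7.36. AT2G35730 had the largest named deficit (-1.48 and -0.99), just short of the threshold in the ANAC092 line. AT3G25870, AT4G12490, AT2G44940, AT5G47610, AT5G47060, AT5G17600, AT5G43150, AT3G11580 and AT5G62150 differed by -1.30 to -1.46 in the ANAC059 line and by -0.36 to -0.92 in the ANAC092 line. Of the 66 probe sets 65 were below wild type in the ANAC092 line as well, and 50 (75.8%) by at least 0.5. The unnamed probe sets 250207_at and 262047_at differed by -1.84 and -1.67 in the ANAC059 line.

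Genes higher in the ANAC092 line only included STOMAGEN, AT2G10940, DRT100 and XTH32. STOMAGEN, which encodes a secreted peptide that promotes stomatal formation in young leaves, read 4.47 in the ANAC059 line and 7.57 in the ANAC092 line, against 4.76 in wild type. Its signal was below the floor in the ANAC059 line and wild type. The stomatal lineage factor genes FMA and SPCH differed by 0.15 and 0.00 in the ANAC092 line, SPCH at 3.79 to 3.85 on all 3 arrays. AT2G10940 read 7.99 in the ANAC059 line and 11.34 in the ANAC092 line, against 7.89 in wild type. DRT100, named for DNA damage tolerance, read 6.34 and 8.02, against 5.41. XTH32, a xyloglucan-modifying cell wall enzyme gene, read 6.62 and 8.44, against 7.18, and was the 1 of 10 measured genes of its family past 1. Of 17 measured expansin genes 1, EXPA8, was at least 1 higher in the ANAC092 line (beside 0.95% of all probe sets). In the ANAC059 line 2 were, EXPA8 and EXLA1 (beside 4.3%).

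AT5G44680, AT3G26960, AT5G44020, AT4G23820, AT3G07010, AT1G12845, AT5G01015, AT5G03120 and AT5G45950 differed by 1.61 to 2.04 in the ANAC092 line and by -0.50 to 0.93 in the ANAC059 line. Chosen after their values were seen, 2 of 11 measured genes of RALF peptides, which signal in cell growth, were higher in the ANAC092 line: RALFL34 read 8.74 in the ANAC059 line and 10.10 in the ANAC092 line, against 8.95 in wild type, and RALFL24 read 5.47 and 6.92, against 5.86. NdhL, a nuclear subunit gene of the complex that ndhA and ndhI belong to, read 10.34 and 11.22, against 9.82. In that complex, also assembled after the differences were seen, 3 of 13 measured genes were thus higher in the ANAC092 line. The 2 higher in the ANAC059 line were ndhA and ndhI, already counted among the chloroplast genes. Beside these and the RALF count, 0.95% of all probe sets were higher in the ANAC092 line and 4.3% in the ANAC059 line. RR16, a response regulator gene of the cytokinin pathway, read 5.18 and 6.08, against 4.75. Across the 142 probe sets the median difference was 1.27 in the ANAC092 line and 0.32 in the ANAC059 line. The unnamed probe set 246004_at read 7.38 and 11.77, against 7.91, and 246919_at read 7.60 and 8.83, against 6.68.

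Genes lower in the ANAC092 line only included PDF1.2, GRX480, PPDK and SBT3.5. PDF1.2, a defensin gene responsive to jasmonate and ethylene, read 8.77 in the ANAC059 line and 8.03 in the ANAC092 line, against 9.38 in wild type, and was the 1 of 3 measured jasmonate genes past 1. In the defensin family, assembled after the differences had been seen, 3 of 12 measured genes were lower in the ANAC092 line (PDF1.2, PDF1.4 and PDF1.2b). In the ANAC059 line 1 was, PDF1.4. Of all probe sets 0.818% were lower in the ANAC092 line and 0.598% in the ANAC059 line. PDF1.2b, a close copy of PDF1.2, read 9.29 and 9.17, against 10.18, so PDF1.2 and PDF1.2b may share signal. GRX480, a glutaredoxin gene of the salicylic acid response, read 11.09 and 10.27, against 11.27, and its difference in the ANAC092 line (-1.0005) lay nearest the threshold. PPDK, a pyruvate orthophosphate dikinase gene of nitrogen remobilisation in ageing leaves, read 9.49 in the ANAC059 line and 8.50 in the ANAC092 line, against 9.53 in wild type.

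The subtilase gene SBT3.5 read 8.37 and 7.38, against 8.95. AT5G38710 read 8.21 in the ANAC059 line and 6.87 in the ANAC092 line, against 8.90 in wild type, the largest named deficit of the class (-2.02). AT1G13750, AT1G26380, AT1G02470, AT3G50280, AT1G68620, AT1G26390, AT3G51450, AT5G19880 and AT4G00700 differed by -1.28 to -1.66 in the ANAC092 line and by -0.99 to 0.17 in the ANAC059 line. GLR2.7, a glutamate receptor-like gene chosen after its values were seen, read 8.56 in the ANAC059 line and 6.42 in the ANAC092 line, against 7.61 in wild type, so its lines lay on opposite sides of wild type, by 0.95 and -1.20. GID1B, a gibberellin receptor gene chosen in the same way, read 7.13 and 6.98, against 8.12. Across the 115 probe sets the median difference was -1.14 in the ANAC092 line and -0.40 in the ANAC059 line.

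Among probe sets of 1 named gene, those nearest the threshold were the following. Just inside, AT4G01610 (1.0003), AT4G18070 (1.0006) and AT5G15610 (1.0036) were higher in the ANAC059 line and AT4G16146 (1.0025), AT4G21870 (1.0064) and AT1G33811 (1.0074) in the ANAC092 line. Just outside were AT3G26380 (0.9973), GLR1.4 (0.9945) and AT3G49790 (0.994) in the ANAC059 line and SECE1 (0.9958), rps18 (0.9953) and AT3G49790 (0.9898) in the ANAC092 line. On the lower side AT3G48020 (-1.0059), AT5G26700 (-1.0199) and AT1G20070 (-1.0225) lay just inside and AT5G44170 (-0.9974), SGP2 (-0.9966) and AT2G17740 (-0.9936) just outside in the ANAC059 line. In the ANAC092 line GRX480 (-1.0005), AT1G10410 (-1.0029) and AT3G16530 (-1.0029) lay just inside and AT2G35730 (-0.9936), AT1G28400 (-0.9932) and AT2G04400 (-0.9759) just outside.

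Few markers of senescence had a probe set named for them in the platform annotation. Of 19 listed leaf senescence genes 4 had a probe set of their own, and WRKY53 in the ANAC059 line was the 1 past the threshold. SAG101, a lipase-like senescence gene, read 6.52 in the ANAC059 line and 4.98 in the ANAC092 line, against 5.62 in wild type. WRKY6 read 7.57 and 6.86, against 7.33, and SAG29, a sugar transporter gene, read 6.41 and 6.43, against 6.74. SAG101 and WRKY6 thus lay above wild type in the ANAC059 line and below it in the ANAC092 line, by less than 1 each. For SAG101 the ANAC092 line and wild type both read below the floor of 5.76, and SAG29 lay below wild type in both lines. AT3G13672, listed with SAG29 as an ANAC092 target from earlier work, read 4.34 and 4.15, against 4.61, below the floor. NOL, of chlorophyll breakdown, read 8.56 and 8.92, against 8.80. AT4G33150 (LKR/SDH, of lysine breakdown) differed by 0.60 in the ANAC059 line and 0.50 in the ANAC092 line. It read 4.45 in wild type and lay below the floor on all 3 arrays. In the sugar starvation and dark response list 2 of 4 measured genes were higher in the ANAC059 line, AT3G15450 and IVD of branched-chain amino acid breakdown (6.86 and 5.59, against 5.64), and 1, AT3G15450, in the ANAC092 line.

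Other families assembled after the differences had been seen had 1 or 2 members past 1 in a line and direction. Of all probe sets 4.3% were higher and 0.598% lower in the ANAC059 line, and 0.95% and 0.818% in the ANAC092 line. Of 12 measured RNA polymerase subunit genes 2 (16.7%) were higher in the ANAC059 line and 1 in the ANAC092 line. NRPB6A (8.42 and 7.68, against 6.63) was higher in both lines and NRPB6B (8.33 and 7.52, against 7.17) in the ANAC059 line. Of 4 measured genes of methionine sulfoxide reductases B, which repair oxidised proteins, MSRB6 differed by 0.19 in the ANAC059 line and 1.35 in the ANAC092 line and MSRB9 by -0.30 and -1.06. Of 8 measured glutamate receptor-like genes GLR2.8 read 7.54 and 5.76, against 6.13, and was higher in the ANAC059 line (12.5%). GLR2.7, named above, was lower in the ANAC092 line. Of 15 tetraspanin genes 1 was higher in the ANAC059 line, and of 15 IQ-domain genes 1 in the ANAC092 line. Among 24 trichome birefringence-like probe sets 1 was higher and 1 lower in the ANAC059 line. Of 5 GH3 genes 1 was lower in each line, and of 8 subtilase genes 1 was lower in the ANAC092 line.

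Most other lists held no member past 1. Of 9 measured autophagy genes 0 passed, with ATG8H 0.94 above wild type in both lines and ATG8D 0.62 and 0.34 below it. Of the vacuolar proteases BETA-VPE differed by -0.71 and -0.70, and GAMMA-VPE by 0.12 and -0.32. In the circadian clock list GI differed by 0.26 in the ANAC059 line and -0.72 in the ANAC092 line, and AT4G33980 and COR27 by 0.08 to 0.62. Of 51 UDP-glycosyltransferase genes matched by symbol UF3GT was the 1 past 1, and members annotated by locus alone were not counted. UGT84A3 lay at -0.98 in the ANAC059 line and UGT87A2 at -0.94 in the ANAC092 line. Of 16 SWEET sugar transporter genes and 14 glutathione transferase genes 0 passed in either line, and CCS, a copper chaperone gene, differed by 0.05 and 0.83. Of 13 U-box and ATL ubiquitin ligase genes PUB43 passed (6.33 and 5.11, against 5.03), of 22 beta-glucosidase genes BGLU25 (1.36 and -0.07), and of 11 low oxygen genes AT1G26270 (1.24 and 0.04), each in the ANAC059 line. These are shares of 7.69%, 4.55% and 9.09%, near the 4.3% of all probe sets. BGLU40 lay 0.94 and 0.91 above wild type in the ANAC059 and ANAC092 lines. The 3 genes of glucosinolate synthesis and breakdown differed by -0.23 to 0.46, and the 4 of oxidative stress and detoxification by -0.14 to 0.22.

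The inductions in seedling shoots gave a readout that the leaf classes did not use, from other plants, tissue and growth conditions. After ANAC092 induction limma called 507 of 22746 probe sets at an adjusted p below 0.05 (2.23%), 318 higher (1.4%) and 189 lower (0.831%). Of the 70 probe sets lower in both insertion lines 9 rose after ANAC092 induction (12.9%) and 1 fell. Of the 186 probe sets lower in the ANAC092 line 17 rose (9.14%) and 7 fell, and these 17 are 5.35% of the 318 that rose; leaving out empty vector replicate 2 or induced replicate 1 left 11 of the 186, and the other arrays 12 to 19. Of the 216 higher in that line 6 rose and 1 fell. Among probe sets above the leaf floor in no class 1.59% rose and 1.08% fell. In the 6 fits that left out 1 array, 6 to 8 of the 70 probe sets rose, against 164 to 493 of all probe sets, and 6 of the 9 passed in each of the 6 fits. No test of these shares was made.

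ChiC read 12.18, 12.08 and 12.06 on the induced arrays, against 8.08, 7.97 and 8.36 on the empty vector arrays (limma, 3.97 ± 0.12 SE, n = 3 each, adjusted p = 1.19e-05). All 3 induced values lay above all 3 control values. AT5G39520, which read 8.19 in the ANAC059 line and 8.18 in the ANAC092 line, against 9.53 in wild type leaves, read 10.57, 10.67 and 10.46 on the induced arrays, against 6.66, 6.28 and 6.14 on the empty vector arrays (limma adjusted p = 1.68e-05). AT1G74010 rose by 2.78 ± 0.18 SE (limma adjusted p = 0.000356) and AT1G19200 by 1.81 ± 0.15 SE (limma adjusted p = 0.00108). These 4 genes and the unnamed 251060_at and 266743_at are the 6 that passed in every fit without 1 array. AT1G08310 rose by 0.80 but passed in 1 of the 6 fits, and SUFE2, lower in both insertion lines, also differed by -1.30 after induction, passing in 2 of 6. OSM34, GH3.3 and AT5G20790, among the most reduced in both lines, did not pass (0.57, 0.02 and 0.57).

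Among probe sets lower in the ANAC092 line only, 8 of 115 rose after ANAC092 induction (6.96%) and 6 fell; 5 rose without empty vector replicate 1, empty vector replicate 2 or induced replicate 1, and 5 of the 8 passed in every fit without 1 array. AT1G02470 read 11.81, 11.73 and 11.75 on the induced arrays, against 9.19, 8.63 and 8.61 on the empty vector arrays (limma adjusted p = 0.000181). AT5G38710 rose by 1.43 ± 0.11 SE (limma adjusted p = 0.000654), and the unnamed 249467_at, with 5.73 in the ANAC092 line and 7.48 in the ANAC059 line, against 7.85 in wild type leaves, rose by 3.45 ± 0.12 SE. PPDK ran the other way and was lower after induction as well (-0.60, limma adjusted p = 0.0427), but passed in 0 of the 6 fits without 1 array. Of the 66 probe sets lower in the ANAC059 line only 6 rose (9.09%) and 1 fell after ANAC092 induction, AT3G25870 by 1.26 ± 0.16 SE (limma adjusted p = 0.00932). Of these 66, 1 rose without empty vector replicate 1, 3 without empty vector replicate 2 or without induced replicate 1, 4 without induced replicate 3 and 10 without empty vector replicate 3. AT3G25870 passed in 5 of the 6 fits.

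**Figure D5:**
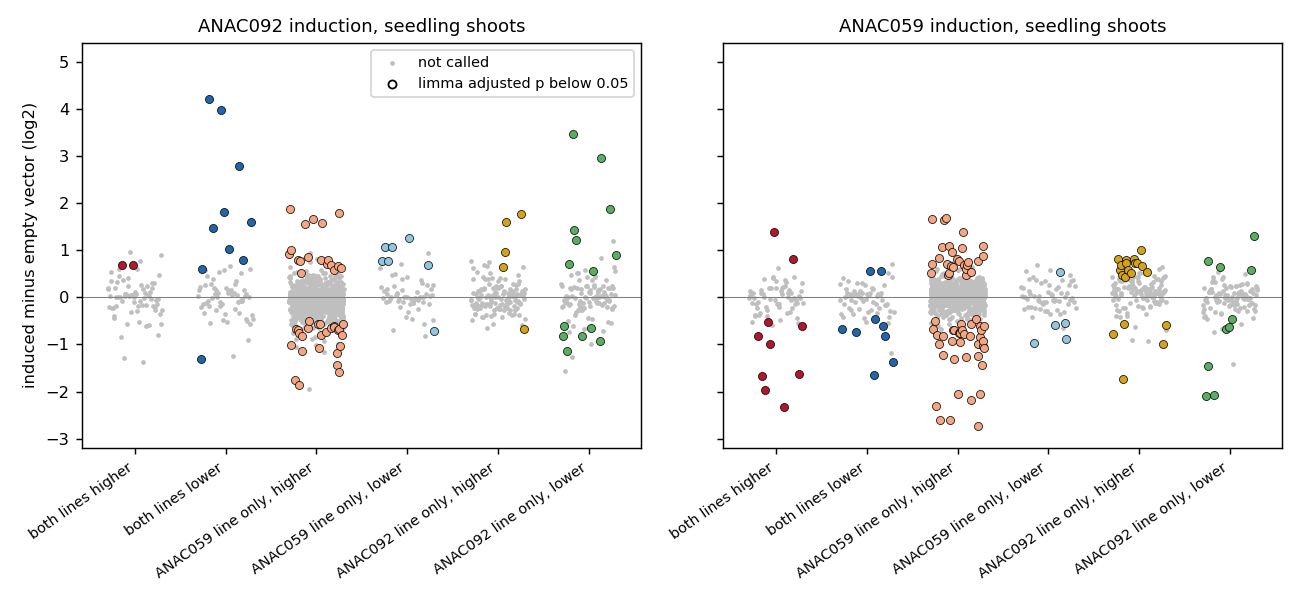
Induced minus empty vector (log2) in seedling shoots for the members of each leaf class, after ANAC092 induction (left, 3 arrays each) and ANAC059 induction (right, 2 arrays each). Outlined points have a limma adjusted p below 0.05. Of the 70 probe sets lower in both lines 9 lie among the called points above 0 on the left and 2 on the right.

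ANAC059 induction called 679 probe sets (2.99%), 375 higher (1.65%) and 304 lower (1.34%) with limma. Of the 136 probe sets lower in the ANAC059 line 3 rose (2.21%) and 11 fell (8.09%), and of the 979 higher in that line 29 rose (2.96%) and 46 fell (4.7%). With 1 array left out these became 0 to 2 and 3 to 7 of the 136, and 9 to 24 and 22 to 44 of the 979, each lowest without empty vector replicate 1. Among probe sets above the floor in no class the shares were 2.06% and 1.76%. Of the 74 probe sets higher in both insertion lines 2 rose and 8 fell (10.8%), and 4 to 9 fell with 1 array left out. AT3G15450 read 9.27 and 9.53 on the ANAC059 induced arrays, against 11.81 and 11.64 on the empty vector arrays (limma adjusted p = 0.00127), and AT2G20670 read 7.98 and 7.92, against 9.89 and 9.29 (limma adjusted p = 0.00926). After ANAC092 induction they differed by -1.38 and -0.81 and did not pass (limma adjusted p = 0.132 and 0.293).

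Of the 70 probe sets lower in both insertion lines 2 rose and 7 fell after ANAC059 induction (10%), and 0 of these 9 calls passed in every fit without 1 array; with 1 array left out 0 of the 70 rose and 1 to 6 fell. Of the 142 probe sets higher in the ANAC092 line only 15 rose after ANAC059 induction (10.6%) and 5 fell, and 2 to 10 rose with 1 array left out. AT5G03120 (0.72 ± 0.09 SE) and AT5G45950 (0.69 ± 0.13 SE) were among them by limma, each passing in 1 of 4 fits without 1 array. CML38, higher in the ANAC059 insertion line, fell by 1.27 ± 0.13 SE after ANAC059 induction (limma adjusted p = 0.00645), whereas CML37, higher in the same line, rose by 1.07 ± 0.11 SE (limma adjusted p = 0.00716). AT3G02840 had the largest named excess of the class higher in the ANAC059 line only. It rose by 1.04 ± 0.12 SE after ANAC059 induction (limma adjusted p = 0.0104), but its adjusted p reached 0.0681 with 1 array left out.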

How the data were processed

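Deposited values are log2 signals that the authors made with RMA, per the submitters' processing notes; per the labels, the 3 leaf arrays were normalized together and apart from both induction sets, so levels were compared within a set. The software version and probe set definition are not given in the sources used here. After 64 control probe sets were left out, 22746 remained, of which 13513 had 1 gene, 503 several and 8730 none in the platform annotation; 13436 matched a locus of the TAIR10.1 gene table, used for names, lengths and gene order. Genes with no probe set of their own in the platform annotation are called not measured: of 475 listed loci 92 had one. Families other than the chloroplast-encoded genes were matched by gene symbol or synonym, so members annotated by locus alone were not counted. Leaf differences are plain subtractions in Python 3 with no test. For the inductions, group means were compared by limma's moderated two-sided test (version 3.58.1, R 4.3.3), adjusted by Benjamini-Hochberg over all 22746. The labels call arrays biological replicates without naming separate cultures. The number of arrays limits the precision. The scripts were tested on simulated data.

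Classes, gene lists and members were chosen with earlier results of these data known, so no list is independent evidence. Named genes are, per class, the 12 largest differences among probe sets of 1 gene, up to 6 class members of each list, up to 4 members of every list, all measured senescence, target and chlorophyll breakdown genes, 3 genes on each side of the threshold and up to 2 unnamed probe sets; others are said to be chosen after their values were seen. Alternatives covered normalization, trend with signal, threshold, floor, cross-hybridising probe sets and, for the inductions, dim probe sets, the replicate number as a block and each array left out.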

Additional observations from a re-analysis of the deposited data

Results flagged for a closer look

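The unnamed probe set 252131_at was the 1 in which the insertion lines departed from wild type by at least 1 in opposite directions. It read 8.05 in the ANAC059 line and 5.33 in the ANAC092 line, against 6.43 in wild type, which is 1.6128 above and -1.1029 relative to wild type. With 1 array per genotype the difference between the lines was not tested. No leaf group was large enough to look for an outlying array.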

How the results depend on the processing

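With a threshold of 1.5 in place of 1, the ANAC059 line had 333 probe sets higher and 37 lower and the ANAC092 line 66 and 40; the classes then held 18 higher in both lines, 21 lower in both, 315 and 16 higher and lower in the ANAC059 line only, and 48 and 19 in the ANAC092 line only. With the floor at the 75th percentile of signal, 531 were higher in the ANAC059 line, 483 in that line only, 43 were lower in that line only and 48 were higher in both. Quantile normalization repeated on the leaf arrays gave 106 lower in the ANAC059 line only, and left 701 of the 904 and 65 of the 70 lower in both in their class. The smallest share kept was in the class lower in the ANAC092 line only, 83 of 115 (72.2%). The other leaf counts moved by less than 1.5 times, and no named difference of at least 1 changed sign under the repeated normalization or with the trend against signal removed.

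The limma counts of called probe sets ran from 209 to 787 of 22746 for ANAC092 with 1 array left out, the lowest without empty vector replicate 2 and the highest without empty vector replicate 3; counts moved by over 1.5 times without any array but induced replicate 2. For ANAC059 they ran from 161 without empty vector replicate 1 to 444 without induced replicate 1, and each of the 4 arrays moved the count by over 1.5 times. With ANAC092 induced replicates 1 and 3 averaged 242 were called. Deviations of same-numbered arrays correlated at -0.107, 0.271 and 0.097 in the ANAC092 set and 0.028 in the ANAC059 set, so not every pair deviated together and the numbers were not taken as pairs. With the replicate number as a block limma called 553 for ANAC092 and 0 for ANAC059, where 4131 had an unadjusted p below 0.05; this ends every ANAC059 induction call named here, AT3G15450 (adjusted p = 0.0501) and AT2G20670 (adjusted p = 0.0741) included. The causes were not tested.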

Other observations

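Several of the genes with the largest rises after ANAC092 induction lay below the leaf floor. Of the 12 named genes with the largest rises in seedlings, ChiC and AT5G39520 were at least 1 lower in both insertion lines. AT4G18425, AT4G04460, AT1G20180, AT2G14095 and AT2G44260 read 3.59 to 4.73 on all 3 leaf arrays, below the floor of 5.76, and differed by 0.00 to 0.07. scpl48, a serine carboxypeptidase-like gene, read 7.87 in the ANAC059 line and 7.24 in the ANAC092 line, against 7.62 in wild type, and PAP20, a purple acid phosphatase gene, read 3.82 and 4.11, against 4.36. AT1G62760 read 4.91 and 4.96, against 5.59.

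After ANAC059 induction, AT5G17350 and AT3G01830 were among the 12 named genes with the largest rises. Both were higher, not lower, in the ANAC059 insertion line, by 1.01 and 1.48, where 4.3% of all probe sets were higher. AT2G32190, also among the 12, differed by -1.14 in the ANAC092 line, and the rest of the 12 were in no leaf class. AT3G01830 read 10.54 in the ANAC059 line and 9.14 in the ANAC092 line, against 9.06 in wild type, and AT5G17350 read 7.11 and 6.42, against 6.10.

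Among 5814 pairs of neighbouring nuclear genes with probe sets of their own, 8 shared a leaf class. Those pairs fell in classes holding 3.97% (ANAC059 line only, higher) and 0.506% (ANAC092 line only, lower) of all probe sets. How many pairs the class sizes alone would give was not computed. AT1G26380 and AT1G26390 differed by -1.58 and -1.43 in the ANAC092 line and by 0.17 and -0.25 in the ANAC059 line, and AT3G51440 and AT3G51450 by -1.20 and -1.34 in the ANAC092 line. The other 6 pairs were higher in the ANAC059 line only, AT2G38790 and AT2G38800 by 1.65 and 3.10. Whether probes of such neighbours share signal was not tested.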
